A study of Mus musculus with 2 samples.

Results

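The nuclear genes of the respiratory chain and the ATP synthase were set against the domain boundaries of immediate neuronal precursor cells of the mouse olfactory epithelium. They were chosen by name, as the protein-coding genes of GENCODE M21 (GRCm38) on the autosomes and chromosome X whose symbol begins with Nduf, Cox followed by 4 to 8, Uqcr or Atp5. The rule found 90 gene models with 89 symbols, of 21755 protein-coding genes in all. Atp5o stands for 2 models, of which the second is 243 kb long. The cells came from FVB/NTac pups of mixed sex, without treatment, and were gated in a sort of olfactory neurons from Ngn1-GFP mice. All material forms 1 group with 2 biological replicates. After fixation in 1% formaldehyde, 2200000 cells of one and 2100000 of the other went into in situ Hi-C with DpnII. The 7841 boundaries were called by the authors on the contacts of both replicates combined, so no value below has a replicate error, no test over samples was possible, and the depth is unknown. No expression was measured here, so the sorted cells could not be checked against their markers, and other cells caught in the gate would not be seen.

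The respiratory chain passes electrons from NADH through complex I (NADH dehydrogenase), complex III (cytochrome bc1) and complex IV (cytochrome c oxidase) to oxygen and pumps protons across the inner mitochondrial membrane. The ATP synthase lets the protons flow back through its membrane part and makes ATP in its F1 head. A few subunits are encoded in mitochondrial DNA, and the others, described here, are encoded at scattered places in the nucleus, are needed in nearly every cell and are made on cytosolic ribosomes. A domain boundary is a position across which contacts are depleted, and gene starts of such broadly used genes are often found beside boundaries. The rule also takes in 8 complex I assembly factors (Ndufaf genes), which build the complex and do not stay in it, and Atp5s, which is not a subunit of the synthase. Ndufa4 was counted with complex IV, where its protein resides, although its name gives complex I.

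Of the 90 members, 34 (37.8%, Wilson 95% interval 28.5 to 48.1%) started within 10 kb of a boundary interval, against 16.4% of all protein-coding genes. The start is the 5′ end of the gene model, and each boundary is an interval of 5 kb. Inside the interval itself lay 17 member starts (18.9%, 12.1 to 28.2%), against 5.07% of all genes. Intervals of shares cover counting error only and take genes as independent. The 34 members lay on 18 chromosomes and at 33 boundaries, and no boundary was shared by members of different symbols. The median distance from start to boundary was 31.3 kb (quartiles 2.21 and 75.7 kb) for the members, against 55.3 kb (21.4 and 102 kb) for all genes. Between 10 and 20 kb away lay 6 members (6.67%), against 7.46% of all genes, and more than 100 kb away lay 15 (16.7%, 10.4 to 25.7%), against 25.8%. The member just inside the limit was Cox8c at 9.32 kb, and that just outside was Uqcrc2 at 10.2 kb.

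**Figure D1:**
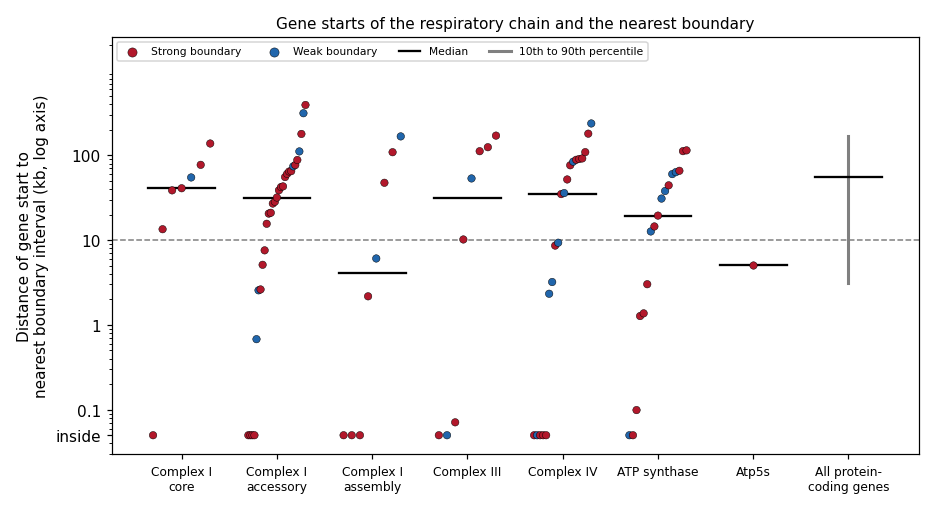
Distance from each member's gene start to the nearest boundary interval on a log axis in kb, by complex, with starts inside an interval drawn at the lowest mark and a dashed line at 10 kb. Points are coloured by the class of that boundary, black bars are medians, and the grey line spans the 10th to 90th percentile of all protein-coding genes; complex I assembly factors have a median of 4.12 kb and complex I core subunits of 40.9 kb.

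With other limits the share of members stayed above that of all genes. Within 5 kb it was 31.1%, against 12.2%, within 25 kb 46.7%, against 27.8%, and within 50 kb 62.2%, against 46.3%. The gap in percentage points was as wide within 5 kb as within 25 kb and narrower within 50 kb, as the plot of shares by distance shows. It was widest within 10 kb, the limit used above, and narrowest inside the interval.

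**Figure D2:**
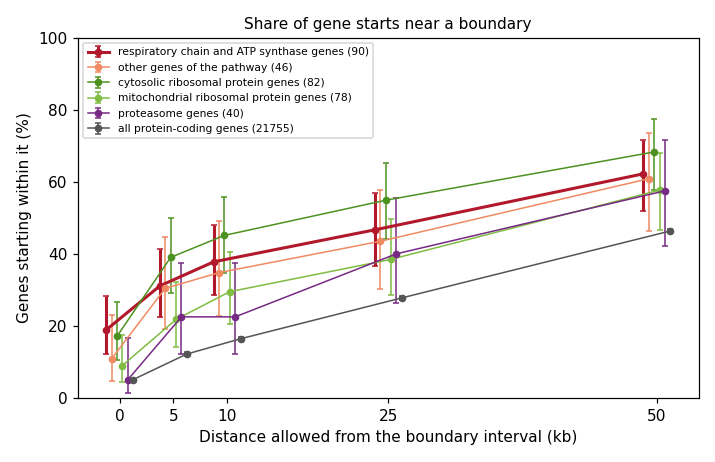
Share of gene starts (%) within 0, 5, 10, 25 and 50 kb of a boundary interval for the respiratory chain and ATP synthase genes, 4 other lists and all protein-coding genes, with the number of genes in brackets. Bars are Wilson 95% intervals, and points at one distance are set slightly apart; the members go from 18.9% inside the interval to 62.2% within 50 kb.

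Of the 7 core subunits of complex I, which carry the flavin and the iron-sulfur clusters, only Ndufs1 started near a boundary. Its start, on chromosome 1, lay inside a strong boundary interval (63175001 to 63180000, score 1.52) that overlapped exons and untranslated sequence of Ndufs1 and of Eef1b2, a translation elongation factor gene. Of the other core genes, Ndufv2 was 13.4 kb, and others were 40.9 kb (Ndufs7), 54.8 kb (Ndufs3), 77.2 kb (Ndufv1) and 138 kb (Ndufs8) from the nearest boundary. With 7 genes the share of 14.3% has a Wilson interval of 2.57 to 51.3%, which includes the 16.4% of all genes.

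Of the 29 accessory subunits of complex I, 9 started near a boundary (31.0%, 17.3 to 49.2%). In 4 the start was inside the interval, and all 4 boundaries were strong. Ndufb10 (chromosome 17, 24720001 to 24725000, score 1.36), a membrane arm subunit, shared its boundary with the ribosomal protein gene Rps2 and 2 further gene starts. Ndufa10 (chromosome 1, 92470001 to 92475000, score 1.19) was the only protein-coding start within 10 kb of its boundary. Ndufb9 (chromosome 15, 58930001 to 58935000, score 1.18) and Ndufb8 (chromosome 19, 44555001 to 44560000, score 0.961) encode further membrane arm subunits. Strong boundaries also lay 2.62 kb from Ndufb11 on chromosome X (score 1.06), 5.12 kb from Ndufv3 (1.04) and 7.57 kb from Ndufb2 (0.609). Weak ones lay 0.679 kb from Ndufa6 (0.320) and 2.56 kb from Ndufa13 (0.284). The other 20 accessory genes were between 15.6 kb (Ndufb6) and 392 kb (Ndufa3) away, and Ndufa3 was the farthest of all members. Ndufs6 (314 kb) and Ndufb3 (179 kb) followed it among the accessory genes.

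Assembly factors of complex I had the highest share near a boundary of the groups by complex, 5 of 8 (62.5%, 30.6 to 86.3%), over few genes. The start of Ndufaf2, a late chaperone of the complex, lay inside a strong interval (chromosome 13, 108155001 to 108160000, score 1.00). So did those of Ndufaf5 (chromosome 2, 140170001 to 140175000, 0.696), which hydroxylates a core subunit, and Ndufaf4 (chromosome 4, 24895001 to 24900000, 0.622). Ndufaf1 lay 2.17 kb from a strong boundary (0.590), and Ndufaf8, a partner of the Ndufaf5 protein, 6.07 kb from a weak one (0.449). Ndufaf3 (47.4 kb), Ndufaf6 (109 kb) and the methyltransferase gene Ndufaf7 (167 kb) were not within 10 kb of a boundary. Each of the 5 near factors was the closest protein-coding start to the midpoint of its boundary, as were 75.3% of all genes near a boundary. Of the 5, 3 started inside the interval, where positions are finer than the call.

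In complex III, 3 of 8 genes started near a boundary (37.5%, 13.7 to 69.4%), an interval that includes the 16.4% of all genes. Uqcrfs1, which encodes the Rieske iron-sulfur protein, started inside a strong interval on chromosome 13 (30545001 to 30550000, score 0.631) and had no other protein-coding start within 50 kb. Uqcrq started inside a weak interval on chromosome 11 (53430001 to 53435000, 0.470). Uqcrh, the gene of the hinge protein that binds cytochrome c1, started 0.071 kb from a strong one on chromosome 4 (116070001 to 116075000, 0.936). Uqcrc2 and Uqcrc1, the core protein genes, were 10.2 and 53.4 kb away, and Uqcr11 (112 kb), Uqcrb (125 kb) and Uqcr10 (171 kb) were more distant.

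In complex IV, 9 of 20 genes started near a boundary (45.0%, 25.8 to 65.8%), of which 5 encode broadly used subunits, 3 tissue isoforms and 1 a factor that is neither. Of 10 broadly used subunits, 5 started inside a boundary interval and the other 5 were 34.9 kb or more away. The 5 were Cox4i1 (chromosome 8, 120665001 to 120670000, score 1.35), Cox8a (chromosome 19, 7215001 to 7220000, 1.03), Cox7b (chromosome X, 106015001 to 106020000, 0.603), Cox6c (chromosome 15, 35935001 to 35940000, 0.595) and, at a weak boundary, Cox6b1 (chromosome 7, 30625001 to 30630000, 0.476). Cox7a2 (34.9 kb), Cox5a (76.3 kb), Cox5b (88.6 kb), Cox7c (91.9 kb) and Cox6a1 (109 kb) were the others. Of 8 genes of tissue isoforms, here Cox4i2, Cox6a2, Cox6b2, Cox7a1, Cox7b2, Cox8b, Cox8c and the Ndufa4 paralogue Ndufa4l2, none started inside an interval. Taking 3 counts as the upper limit of a count of 0, 0 of 8 allows a share of up to 37.5%. That range includes the 5.07% of all genes that started inside an interval. The difference in these counts, 5 of 10 against 0 of 8, thus rests on few genes and was not tested. Within 10 kb of a boundary the counts were closer, 5 of 10 and 3 of 8. Near boundaries were Cox7b2 (3.21 kb, weak, 0.421), the muscle isoform gene Cox6a2 (8.61 kb, strong, 1.07) and Cox8c (9.32 kb, weak, 0.276). Cox7a2l, whose protein joins complexes III and IV in supercomplexes, lay 2.33 kb from a weak boundary (0.351). Ndufa4 was the farthest of complex IV, at 237 kb.

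In the ATP synthase, 6 of 17 gene models started near a boundary (35.3%, 17.3 to 58.7%), and the members with the highest boundary scores were here. Atp5o, which encodes the subunit that holds the head to the stator stalk, lay at a strong boundary on chromosome 16 (91930001 to 91935000, score 1.71), inside it by the start of one model and 3.02 kb from it by the other. Atp5f1, which encodes the main stalk subunit b, started 0.099 kb from a strong boundary on chromosome 3 (105955001 to 105960000, 1.64), together with Wdr77. The head subunit gene Atp5a1 (chromosome 18, 1.27 kb, score 1.23) and the central stalk gene Atp5d (chromosome 10, 1.37 kb, 1.11) also lay at strong boundaries. Of the 3 genes that encode the same mature c ring subunit, Atp5g3 started inside a weak interval (chromosome 2, 73910001 to 73915000, 0.307), Atp5g2 was 12.6 kb and Atp5g1 65.7 kb from a boundary. Atp5b, which encodes the catalytic subunit, was 63.3 kb away, and Atp5j, a stator gene, 114 kb, the farthest of the synthase. Atp5s lay 5.05 kb from a strong boundary (0.912).

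Most boundaries near members were of the strong class, which begins at a score of 0.5 in this list, by the score that the authors gave each boundary. Of the 33, 24 were strong (72.7%, Wilson interval 55.8 to 84.9%), against 63.0% of the 2687 boundaries near any protein-coding start and 52.8% of all 7841. Their median score was 0.912 (interval of the median 0.595 to 1.06), against 0.643 and 0.533. For both the strong share and the median score, the interval included the value of boundaries near any protein-coding start. Neither interval included the value of all boundaries. The scores ran from 0.276 at Cox8c to 1.71 at Atp5o, and 14 of the 33 were 1 or higher. The upper quartile was 1.11, against 1.01 for boundaries near any protein-coding start and 0.899 for all boundaries. Counted against strong boundaries alone, 25 of 90 members (27.8%, 19.6 to 37.8%) were near one, against 10.6% of all genes. Of the 33 intervals, 26 overlapped an exon of a protein-coding gene (78.8%, 62.2 to 89.3%), against 62.5% of boundaries near any protein-coding start and 34.8% of all. A further 3 lay in introns and 4 between genes.

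**Figure D3:**
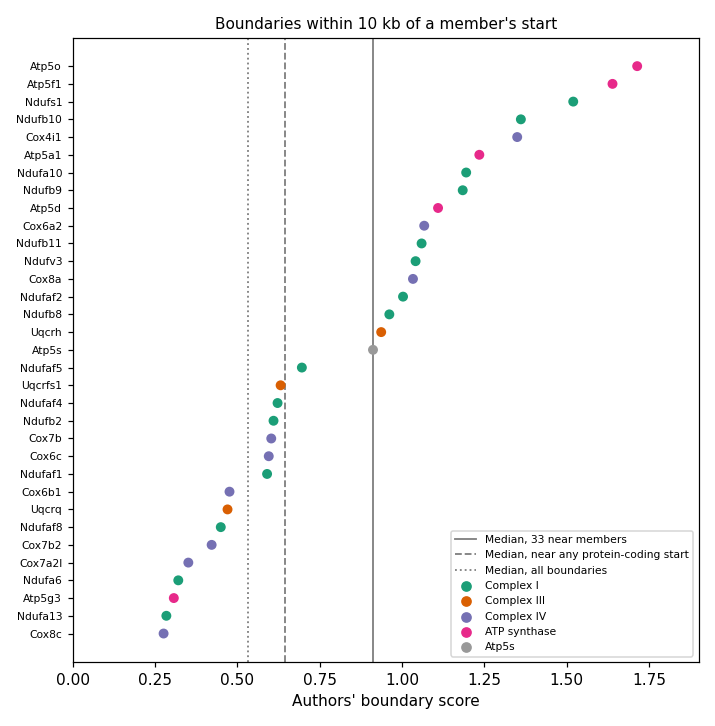
The authors' score of each of the 33 boundaries within 10 kb of a member's start, in order of score, coloured by complex. Vertical lines mark the median of these 33 (0.912), of boundaries near any protein-coding start (0.643) and of all boundaries (0.533); Atp5o and Atp5f1 stand at the top.

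Members near a boundary were evenly divided in direction. In 17 of the 34 the midpoint of the boundary lay upstream of the start, so that transcription ran away from it (50%, Wilson interval 34.1 to 65.9%), against 54.5% of all genes near a boundary. In the other 17 it lay downstream. Positions within a 5 kb interval are finer than the call, so the 17 members outside the interval were also counted alone, and 7 of these were transcribed away (41.2%), against 56.1%. The gene body crossed the midpoint in 15 of 34 members (44.1%), against 37.5% of all genes near a boundary. Among them were Ndufaf2, a gene of 156 kb whose start lay inside its interval, and Atp5a1 and Atp5d, whose gene models both started outside the interval and ran across it. In RefSeq the start of Atp5d lay 3643 bp from that of its gene model, and inside the interval. Cox4i1, Ndufs1, Ndufaf4, Atp5g3 and Uqcrfs1 started inside their interval and were transcribed away from its midpoint, a direction that is finer than the call.

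**Figure D4:**
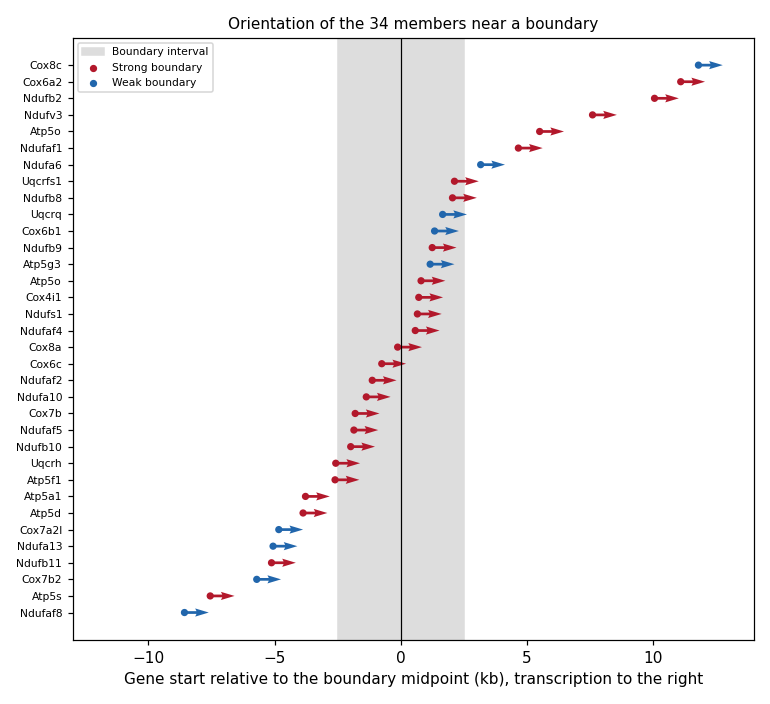
Start of each of the 34 members near a boundary relative to the midpoint of the boundary interval (kb), turned so that transcription runs to the right, with an arrow for its direction and colour for the boundary class. The grey band is the 5 kb interval; 17 starts lie to the left of the midpoint and are transcribed toward it, and 17 lie to the right and are transcribed away.

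Divergent partners, protein-coding genes that start head to head on the other strand within 1000 bp, were found for 20 of the 90 members (22.2%, 14.9 to 31.8%), against 6.84% of all protein-coding genes. The starts of these pairs were 10 to 336 bp apart. In other lists, described below, 23.1% of mitochondrial ribosomal protein genes and 19.6% of other genes of the pathway had such a partner. The share was 15.0% for proteasome genes and 11.0% for cytosolic ribosomal protein genes, and differences between lists were not tested. By complex, partners belonged to 8 of 29 accessory and 4 of 8 assembly genes of complex I, 3 of 8 genes of complex III, 2 of 20 of complex IV and 2 of 17 of the synthase. None of the 7 core genes of complex I had one by this definition, while the starts of Ndufs1 and Eef1b2 overlapped by 8 bp. With overlaps of up to 500 bp allowed, 28 members had a partner (31.1%), against 9.61% of all genes by that definition, among them Ndufb11 with Rbm10, Ndufa13 with Tssk6, Atp5a1 with Haus1 and Ndufs6 with Mrpl36, a mitochondrial ribosomal protein gene.

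Members with a partner started near a boundary in 9 of 20 cases (45.0%, 25.8 to 65.8%), against 27.3% of all genes with a partner. Members without one did so in 25 of 70 cases (35.7%, 25.5 to 47.4%), against 15.6% of all genes without one. Both shares of the members were thus above those of all genes of the same kind, and the intervals of the members with and without a partner overlapped. With a partner, the interval of the members included the 27.3% of all such genes. Without one, it did not include the 15.6%. Because each pair at a boundary shares 1 short stretch of sequence between its starts, that stretch is given for 8 of the 9, from start to start on the strand of the member, in order of boundary score. The capitals mark the letters CCGGAAG on either strand, the core bound by ETS factors such as GABPA (NRF2), which is known to act on genes of the respiratory chain. The stretches lie at chr8:120668079-120668222 (Cox4i1, plus strand), chr15:58933738-58933756 (Ndufb9, plus strand), chr17:31519980-31520115 (Ndufv3, plus strand), chr13:108158623-108158731 (Ndufaf2, minus strand), chr4:116075071-116075269 (Uqcrh, minus strand), chr2:140170564-140170649 (Ndufaf5, plus strand), chr11:53430831-53431023 (Uqcrq, minus strand), chr11:120098731-120098928 (Ndufaf8, plus strand), all GRCm38.
Cox4i1 to Gm27021: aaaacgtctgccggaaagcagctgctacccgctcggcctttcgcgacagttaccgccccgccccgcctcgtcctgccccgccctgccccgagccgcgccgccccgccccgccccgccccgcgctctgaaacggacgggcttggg
Ndufb9 to Tatdn1: tggctcagagcacgctcgt
Ndufv3 to Wdr4: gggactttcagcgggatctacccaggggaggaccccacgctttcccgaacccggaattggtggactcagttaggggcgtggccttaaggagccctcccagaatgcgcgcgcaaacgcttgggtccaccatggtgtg
Ndufaf2 to Ercc8: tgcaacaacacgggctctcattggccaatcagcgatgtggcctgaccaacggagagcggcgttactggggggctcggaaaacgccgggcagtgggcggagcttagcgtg
Uqcrh to Lrrc41: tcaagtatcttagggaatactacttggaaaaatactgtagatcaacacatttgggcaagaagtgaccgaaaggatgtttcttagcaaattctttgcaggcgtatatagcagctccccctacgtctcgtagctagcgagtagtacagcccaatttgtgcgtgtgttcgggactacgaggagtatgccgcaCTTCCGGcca
Ndufaf5 to Esf1: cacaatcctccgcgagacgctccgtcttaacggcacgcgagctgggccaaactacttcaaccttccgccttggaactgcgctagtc
Uqcrq to Gdf9: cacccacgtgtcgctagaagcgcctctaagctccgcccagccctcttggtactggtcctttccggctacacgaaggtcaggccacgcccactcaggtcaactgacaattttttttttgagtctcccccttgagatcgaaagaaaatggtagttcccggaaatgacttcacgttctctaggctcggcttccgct
Ndufaf8 to Tepsin: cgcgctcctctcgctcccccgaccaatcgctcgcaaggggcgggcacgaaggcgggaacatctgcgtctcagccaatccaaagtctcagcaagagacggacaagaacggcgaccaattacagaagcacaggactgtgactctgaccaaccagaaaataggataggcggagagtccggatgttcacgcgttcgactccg
The pairs differ in spacing, with 18 bp between the starts of Ndufb9 and Tatdn1, a nuclease gene, and 198 bp between those of Uqcrh and Lrrc41. The partners had unlike roles. Ercc8 acts in DNA repair, Esf1 in the nucleolus, Wdr4 in tRNA methylation, Tepsin in vesicle coats and Gdf9 as a growth factor of the oocyte. Gm27021, opposite Cox4i1, is an annotated model without a name of its own. Only the stretch of Uqcrh held the ETS letters, 1 of the 9, and none held the other motifs searched below.

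Motifs were also searched in promoter windows of 300 bases, from 250 before to 50 after the RefSeq start, taken from RefSeq (GRCm38.p6). Windows were found for 74 of the 90 gene models and for 16824 of all protein-coding genes. In 7 of the 74, of which 5 were near a boundary, the RefSeq start lay more than 500 bp from the GENCODE start, and both Atp5o models were given the same window. The RefSeq starts of Atp5d (3643 bp off), Cox7a2l (2997 bp) and Atp5f1 (836 bp) lay inside a boundary interval, while their gene models started outside it. The motifs were the NRF1 consensus, CCGGAAG of ETS factors and the YY1 consensus, each as exact letters on both strands, and none contains another. The letters of the NRF1 motif are the capitals in the windows of Ndufaf5 and Ndufaf4 below. They were in 7 of 74 member windows (9.46%), against 1.38% of all, the ETS letters in 15 (20.3%), against 12.3%, and the YY1 letters in 5 (6.76%), against 1.33%. Any of the 3 was in 24 (32.4%), against 14.4%. Among members with a window, 7 of 26 near a boundary held one (26.9%), against 21.7% of all genes near a boundary. Of the members not near a boundary, 17 of 48 held one (35.4%), and the share of all genes not near a boundary was not computed. Near a boundary the share was thus lower than elsewhere for the members, while for all genes it was above the 14.4% found over all windows. These differences were not tested. A match is a description of the letters and not a binding site. Of the members that started inside a boundary interval, Ndufs1, Cox4i1, Ndufb9, Uqcrq and Cox6c had no window. The windows of Atp5o, Ndufb10, Ndufa10, Ndufaf2, Ndufb8, Uqcrfs1, Cox7b and Atp5g3 held no match. The other 4 had a window with a match, which is in capitals, and they are shown because a boundary and a motif coincide there. They were chosen after the matches were seen, and lie at chr19:7217567-7217866, minus strand (Cox8a), chr2:140170396-140170695, plus strand (Ndufaf5), chr4:24897833-24898132, plus strand (Ndufaf4) and chr7:30626065-30626364, minus strand (Cox6b1).
Cox8a: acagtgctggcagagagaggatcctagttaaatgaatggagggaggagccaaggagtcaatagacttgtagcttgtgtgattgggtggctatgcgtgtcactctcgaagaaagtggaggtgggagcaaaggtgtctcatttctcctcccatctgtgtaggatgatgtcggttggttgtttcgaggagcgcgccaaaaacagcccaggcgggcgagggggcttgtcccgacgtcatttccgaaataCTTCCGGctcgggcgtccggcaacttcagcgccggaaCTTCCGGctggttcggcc
Ndufaf5: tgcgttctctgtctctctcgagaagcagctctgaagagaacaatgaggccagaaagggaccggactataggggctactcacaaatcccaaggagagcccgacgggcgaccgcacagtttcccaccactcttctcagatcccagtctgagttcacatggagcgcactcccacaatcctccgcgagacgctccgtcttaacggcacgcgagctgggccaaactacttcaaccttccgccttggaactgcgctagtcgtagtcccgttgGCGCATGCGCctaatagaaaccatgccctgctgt
Ndufaf4: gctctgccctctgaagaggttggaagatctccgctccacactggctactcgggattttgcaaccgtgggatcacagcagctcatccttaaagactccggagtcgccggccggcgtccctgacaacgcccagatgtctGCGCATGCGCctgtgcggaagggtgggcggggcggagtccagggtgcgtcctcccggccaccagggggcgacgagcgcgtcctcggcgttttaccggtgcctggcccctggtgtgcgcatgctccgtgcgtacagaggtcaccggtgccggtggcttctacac
Cox6b1: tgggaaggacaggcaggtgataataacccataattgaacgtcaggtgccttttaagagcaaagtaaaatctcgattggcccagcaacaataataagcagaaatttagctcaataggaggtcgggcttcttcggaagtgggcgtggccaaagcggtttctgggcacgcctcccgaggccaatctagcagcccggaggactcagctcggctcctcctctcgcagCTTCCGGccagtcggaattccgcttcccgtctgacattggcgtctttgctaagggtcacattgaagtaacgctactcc
Cox8a held the ETS letters at 2 places and Cox6b1 at 1, and Ndufaf5 and Ndufaf4 the NRF1 letters at 1 each.

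Of the 34 members near a boundary, 9 were the sole protein-coding start within 10 kb of their boundary (26.5%), against 55.2% of all genes near a boundary. Both Atp5o models start at 1 boundary and are here each other's company. With both of these included, 11 of the 34 gene models had no start of another symbol there (32.4%), against 55.4%. In 22 the member was the closest start to the midpoint (64.7%), against 75.3%. The 9 were Ndufa10, Ndufa6, Ndufaf4, Uqcrfs1, Cox6a2, Cox6c, Cox7a2l, Cox7b2 and Atp5g3. Members were also set beside genes with as many neighbours. Among members with 0 or 1 other start within 50 kb, 9 of 21 were near a boundary (42.9%, 24.5 to 63.5%), against 17.2% of all such genes. With 2 or 3 other starts it was 19 of 44 (43.2%, 29.7 to 57.8%), against 17.3%, and with 4 or more 6 of 25 (24%, 11.5 to 43.4%), against 13.6%. With 4 or more neighbours the interval of the members included the share of all genes, and with fewer it did not.

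The consensus bound by CTCF, the factor that halts loop extrusion at many boundaries, was matched exactly within 10 kb of 14 of the 33 boundaries near members (42.4%, Wilson interval 27.2 to 59.2%), against 26.1% of boundaries near any protein-coding start and 26.0% of all. Inside the bare interval it was matched in 3 of 33 (9.09%), against 5.99% and 6.90%. These 3 lay at Ndufaf1, with 2 matches, Ndufaf4 and Cox7b. The boundaries of Atp5o and Atp5f1 had 1 match each within 10 kb and that of Ndufs1 had 3. Those of Ndufb10, Cox4i1 and Atp5a1 had none, which says only that these letters were not found in that window.

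Domains that held a member were of ordinary size. The 73 member starts that lay between 2 boundaries, outside their intervals, were in domains with a median size of 250 kb (quartiles 195 and 345 kb), against 275 kb (195 and 395 kb) for the 20428 protein-coding starts placed in the same way. These domains held a median of 6 protein-coding starts in both cases. Genes of the synthase were in domains of 200 kb in the median (15 starts) and those of complex IV, with Cox7a2l among them, in domains of 260 kb (15 starts). Domains over 500 kb held 7 of the 73 members (9.59%, 4.72 to 18.5%), against 15.0% of all genes placed in a domain, with Uqcrb in the largest (2025 kb), followed by Cox7c (1090 kb), which was the only start in its domain, and Ndufa1 (990 kb), which shared its domain on chromosome X with 39 other starts. The smallest domain was that of Ndufa6, 85 kb. The members spread over 72 domains, and the only 2 in the same domain were the core genes Ndufs8 and Ndufv1 on chromosome 19 (3775001 to 4090000).

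**Figure D5:**
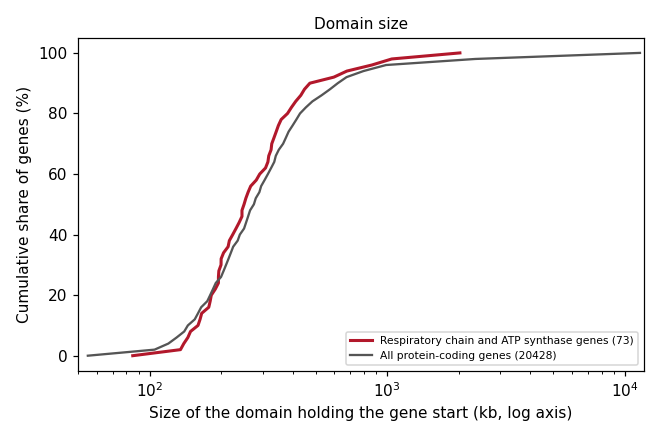
Cumulative share of genes (%) by the size of the domain that holds their start (kb, log axis), for the 73 members and the 20428 protein-coding genes placed in a domain. The median is 250 kb for the members and 275 kb for all genes, and the lines run close together up to the lower quartile of 195 kb.

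Of 46 other genes of the pathway, for complex II, cytochromes c and c1, further assembly factors of the complexes, an inhibitor of the synthase and regulators of mitochondrial genes, 16 started near a boundary (34.8%, 22.7 to 49.2%), and 5 of these inside the interval (10.9%). They included Sdhb (inside, strong, 0.743) and Sdhd (3.81 kb, strong, 0.718) of complex II, Cyc1 (6.48 kb, strong, 1.32), which encodes cytochrome c1, and Atpif1 (1.34 kb, strong, 1.42), whose protein inhibits the synthase. Ttc19 and Timmdc1, assembly genes of complexes III and I, started inside strong intervals (1.21 and 1.13). Tfam, the gene of the packaging factor of mitochondrial DNA, lay 3.28 kb from a strong boundary (0.682) and Nrf1, the gene of the factor named above, 2.01 kb from a weak one (0.464). For 3 other lists of broadly used genes the share within 10 kb was 45.1% (37 of 82 cytosolic ribosomal protein genes), 29.5% (23 of 78 mitochondrial ribosomal protein genes) and 22.5% (9 of 40 proteasome genes), and its Wilson interval overlapped that of the members in each case. Differences between the lists were not tested.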

How the data were processed

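In situ Hi-C was measured in 2 biological replicates of sorted precursors. The deposited list gives 5 kb intervals with a class and the authors' own boundary score, and these boundaries were called on the matrix combined from both replicates, per the series' design text. The build is GRCm38, per the submitters' processing notes. The boundary caller, with its parameters, is not given in the sources used here, and pooling lets the deeper replicate weigh more. The class column follows the score, strong from 0.5 and weak from 0.2.

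Gene starts came from GENCODE M21 and sequence from RefSeq GRCm38.p6, and every boundary lay within the reference chromosomes. Distances, shares, Wilson 95% intervals and medians were computed with Python 3.11.15, pandas 2.3.3 and scipy 1.17.1, and the distance and partner steps were tested on simulated positions. No test was run, because the list has no replicates. A domain is the sequence between neighbouring intervals. RefSeq windows were matched by Entrez gene or symbol, using the window closest to the GENCODE start. The strain differs from the reference, and variants were not examined.

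The members, lists and complexes were chosen with earlier results of these data known. The naming rule covers all members near a boundary, the farthest of each complex and the partners of near members. Other members are named to complete their complex, after their values were seen. A few items are not reported here. Alternatives were other distances, boundary sets, gene starts, partner definitions and member sets.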

Additional observations from a re-analysis of the deposited data

How the results depend on the processing

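Of 57 recomputed values, 47 stayed within the 95% interval of the reported one. Near a boundary lay 18.9% of members with starts inside the interval, against 5.07% of all genes, and 62.2% within 50 kb, against 46.3%. The share was 27.8% with strong boundaries only, against 10.6% of all genes. With those at or above the median score it was also 27.8%, against 10.2%. For strong boundaries the share of members was 15.6% inside the interval and 47.8% within 50 kb, and those of all genes were not computed. With strong boundaries only, the median distance was 57.9 kb and the median domain 407.5 kb, and with boundaries at or above the median score 62.4 and 407.5 kb. Fewer boundaries enter these sets, and over all genes the median distance was then 99.0 and 105 kb. Merging boundaries within 50 kb changed nothing, since no pair was that close. Counting the start of any protein-coding transcript left 34 members near a boundary, against 18.1% of all genes, and 1 model per symbol, added after the data were seen, left 33 of 89. Without assembly factors, Atp5s and Cox7a2l it was 27 of 80 (33.8%). No paired analysis was possible because the deposited boundaries come from both replicates combined, and for the same reason neither replicate could be left out. Depth limits the calls in an unknown way.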

Other observations

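On chromosome 10, 3 members lay in a row in neighbouring domains. By its gene model, Atp5d started 1.37 kb before the boundary at 80140001 to 80145000 (score 1.11) and ran across its midpoint. Ndufs7 lay in the next domain, of 145 kb with 8 protein-coding starts, 40.9 kb before a boundary with a score of 0.565. Uqcr11 lay on the other side of that boundary, 112 kb from it, in a domain of 265 kb with 12 starts. On chromosome X, Ndufb11 and Cox7b were near strong boundaries (1.06 and 0.603), while Ndufa1 was 111 kb from a weak one (0.321). The boundary 34.9 kb from Cox7a2 scored 2.21, higher than that of any boundary near a member.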
